A study of Rattus norvegicus with 12 samples.

Results

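Cst6, Sctr, Psca, Cldn4, Ankrd34c and Cela1 were followed across 12 RNA-seq libraries of tissue from a rat distal femur defect. These 6 genes, of 22601 in the deposited table, were chosen by their large rises in defects filled with a PCL scaffold over empty defects or defects filled with hydrogel. The values that chose them are therefore given as a description, without a test. The defect, 3 mm wide, was drilled in Sprague Dawley rats that were 8 weeks old, and the tissue formed in it was taken 2 weeks after surgery. Each group had 3 libraries. The PCL group received a 3D-printed scaffold of polycaprolactone, a slowly degrading polyester. The β-TCP group received a printed scaffold of β-tricalcium phosphate, a calcium phosphate ceramic. The hydrogel group received a printed scaffold of GelMA, a gelatin that light crosslinks into a gel. The control group received the same defect with no scaffold. No transgene or drug was named for any group. The labels do not state that each library came from a separate animal, so the p-values below speak to the spread among these libraries, part of which may be technical. The labels call the tissue bone, and bone genes such as Ibsp, a mineral-binding matrix protein, were high in all groups, with 804 to 1413 FPKM in PCL and 1497 to 4771 FPKM in control libraries.

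The members belong to different protein families and are mostly known from lining and gland tissues rather than from bone. Cst6 encodes cystatin E/M, a secreted inhibitor of legumain and of some cysteine cathepsins. Cela1 encodes a secreted serine protease of the pancreatic elastase type. Sctr encodes the secretin receptor, a G protein-coupled receptor that raises cyclic AMP in ducts of the pancreas and liver. Psca encodes a small GPI-anchored surface protein of the Ly6/uPAR family, and Cldn4 encodes a claudin, a strand protein of epithelial tight junctions. Ankrd34c encodes an ankyrin repeat protein. In a healing defect, macrophages gather on implanted material and may fuse, while cartilage, bone, marrow and vessels form around it.

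Levels are given in FPKM as the authors deposited them, a count of sequenced fragments scaled to transcript length and to library depth. Because the unit is per length, levels of different genes can be set beside each other. The libraries held 15035925 to 17357830 fragments, as recovered from the FPKM steps. β-TCP replicates 2 and 3 were nearly alike, with a mean chi-square of 2.14 per gene between their fragment counts, while the other 11 pairs of replicates gave 30.4 to 301. That is above sampling noise, which does not show that the pair came from separate tissue or RNA samples, and whether it did is not known. Both libraries were kept in the main fit, and β-TCP values are also given with this pair counted once. Control replicate 3 stood apart. Its summed level of 14 cartilage genes was 14601 FPKM, the highest of the 12 libraries, and its summed level of 12 erythroid genes was 1135 FPKM, the lowest. The libraries are of whole tissue, in which fewer cells of a type and less RNA per cell cannot be told apart.

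Cst6 had the highest level of the members in PCL. It reached 65.9, 38.02 and 21.1 FPKM in the PCL libraries, against 1.06, 1.99 and 2.17 FPKM in β-TCP, 1.15, 3.73 and 0.876 FPKM in hydrogel and 0.706, 1.10 and 0.588 FPKM in control. All 3 PCL libraries lay above the other 9, and the lowest of them was 5.68 times the highest library outside PCL. The means were 41.7 ± 22.6 FPKM in PCL, 1.74 ± 0.599 in β-TCP, 1.92 ± 1.57 in hydrogel and 0.799 ± 0.271 in control (SD, n = 3 each). Below PCL the order was hydrogel, β-TCP and control, and the ranges of neighbouring groups overlapped. Cst6 thus stood at a low level everywhere but in PCL, where the highest library was 3.12 times the lowest.

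Sctr gave the second highest PCL mean. Its levels were 21.2, 18.6 and 13.5 FPKM in PCL, against 0.328, 5.25 and 4.04 FPKM in β-TCP, 1.27, 3.00 and 1.22 FPKM in hydrogel and 0.255, 0.513 and 0.342 FPKM in control. The groups averaged 17.8 ± 3.90 FPKM in PCL, 3.21 ± 2.56 in β-TCP, 1.83 ± 1.01 in hydrogel and 0.370 ± 0.131 in control (SD, n = 3 each). PCL did not overlap with any other group and hydrogel did not overlap with control. β-TCP overlapped with both of these ranges. Its replicate 1 was as low as the control libraries, and its near-identical replicates 2 and 3 were above every hydrogel library.

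Psca was the only member whose PCL range overlapped with that of another group. It had 16.4, 9.92 and 12.5 FPKM in PCL, against 2.59, 14.1 and 9.86 FPKM in β-TCP, 2.76, 3.02 and 1.58 FPKM in hydrogel and 0.840, 1.45 and 0.449 FPKM in control. β-TCP replicate 2 lay between PCL libraries, so the ranges overlapped, and the means were 12.9 ± 3.28 FPKM in PCL and 8.85 ± 5.82 FPKM in β-TCP (SD, n = 3 each). Hydrogel averaged 2.45 ± 0.766 FPKM and control 0.912 ± 0.503 FPKM, with no overlap between them. For Psca the data therefore go against the description of a gene raised mainly by PCL, since β-TCP replicate 2 lay within its PCL range and replicate 3 just below it.

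Cldn4 was the steadiest member within PCL. Its PCL libraries had 6.45, 5.54 and 5.36 FPKM, against 0.785, 2.98 and 2.59 FPKM in β-TCP, 0.301, 0.988 and 0.628 FPKM in hydrogel and 0.583, 0.183 and 0.409 FPKM in control. This gave 5.78 ± 0.586 FPKM in PCL, 2.12 ± 1.17 in β-TCP, 0.639 ± 0.343 in hydrogel and 0.392 ± 0.200 in control (SD, n = 3 each). PCL stood above all other libraries, and each of the lower groups overlapped with the next one in the order of means.

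Ankrd34c had the largest ratios, on very small levels outside the PCL and β-TCP groups. Its levels were 6.28, 3.64 and 2.56 FPKM in PCL, against 0.376, 1.61 and 1.54 FPKM in β-TCP, 0.0304, 0.0640 and 0.0112 FPKM in hydrogel and 0.0551, 0.0664 and 0.0309 FPKM in control. The means were 4.16 ± 1.91 FPKM in PCL, 1.17 ± 0.690 in β-TCP, 0.0352 ± 0.0267 in hydrogel and 0.0508 ± 0.0181 in control (SD, n = 3 each). The whole hydrogel group rested on 10 fragments and the control group on 14 fragments, against 1253 in PCL. From these summed fragments PCL was 82.6-fold above control with a 95% counting interval of 49.0 to 151, and 117-fold above hydrogel with an interval of 63.5 to 245. These are exact binomial intervals that cover counting error only, not the spread among libraries. The PCL libraries held 624, 376 and 253 fragments. Ankrd34c was chosen on these comparisons, so the intervals are a description and not a test. All 3 β-TCP libraries also lay above every hydrogel and control library, which overlapped with each other.

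Cela1 was already present without a scaffold, and its rise was the smallest of the members as a ratio to control. It had 12.6, 9.11 and 9.80 FPKM in PCL, against 4.36, 5.12 and 5.63 FPKM in β-TCP, 1.52, 1.15 and 1.92 FPKM in hydrogel and 1.12, 1.73 and 1.88 FPKM in control. The means were 10.5 ± 1.85 FPKM in PCL, 5.04 ± 0.638 in β-TCP, 1.53 ± 0.388 in hydrogel and 1.58 ± 0.401 in control (SD, n = 3 each). PCL, β-TCP and the pair of lower groups formed separate ranges, and hydrogel overlapped with control. Cela1 was the member whose β-TCP libraries agreed best, since replicates 2 and 3 averaged 1.23 times replicate 1, against 1.97 to 14.2 times for the other 5 members.

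**Figure D1:**
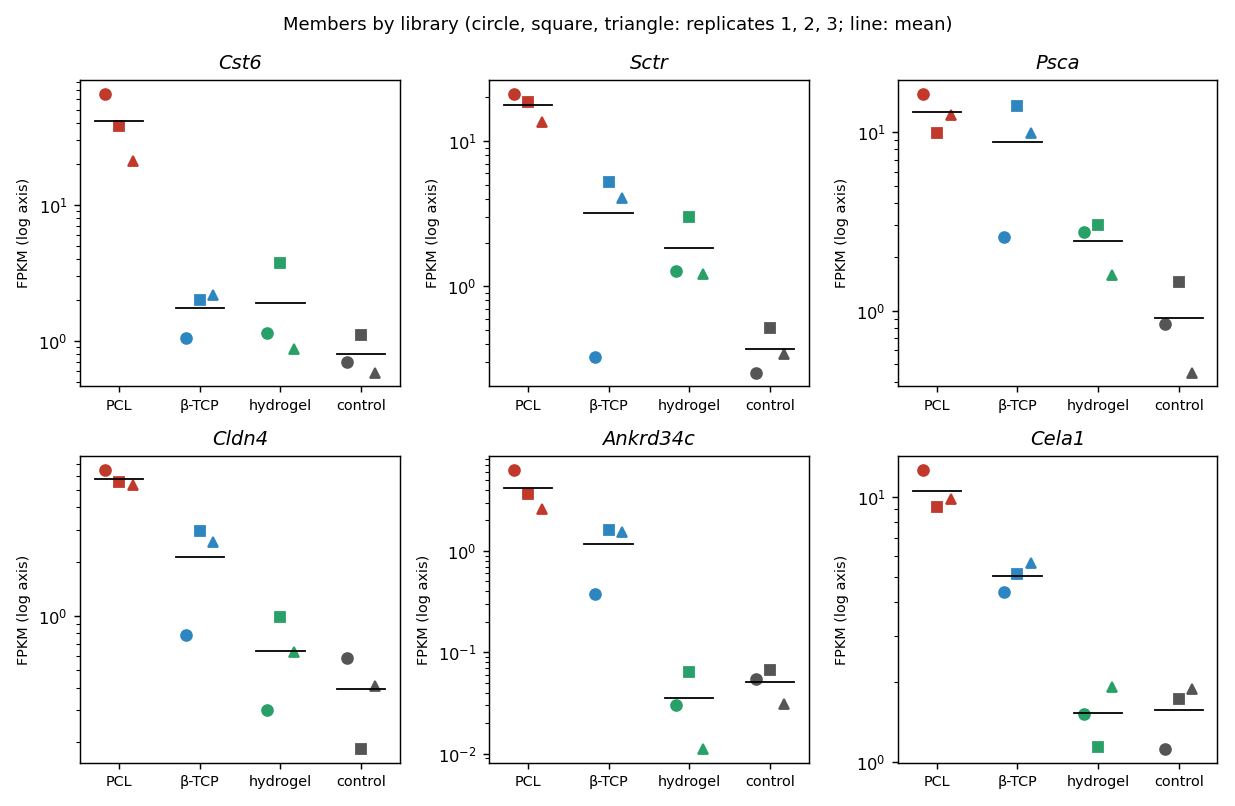
FPKM of the 6 members in each library on a log axis, 1 panel per gene, with PCL, β-TCP, hydrogel and control from left to right. Markers are libraries (circle, square and triangle for replicates 1, 2 and 3) and lines are group means. PCL stands above every other library in 5 panels, and Psca overlaps with β-TCP.

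Set beside each other, the PCL means were 52.1, 48.0, 14.2, 14.8, 81.9 and 6.65 times the control means for Cst6, Sctr, Psca, Cldn4, Ankrd34c and Cela1. In the same order they were 21.7, 9.69, 5.27, 9.05, 118 and 6.86 times the hydrogel means. Against β-TCP the ratios were 23.9, 5.54, 1.46, 2.73, 3.55 and 2.08, smaller than those to control for all 6. For Cst6 the β-TCP ratio was slightly above the hydrogel ratio, and for the other members it was below it. With β-TCP replicates 2 and 3 counted once, the β-TCP means were 1.57, 2.49, 7.28, 1.78, 0.973 and 4.87 FPKM.

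PCL replicate 1 was the highest of the 3 PCL libraries for all 6 members, as it was for 49.7% of the 12633 genes tested. β-TCP replicate 1 was the lowest of its group for all 6, as it was for 34.0% of genes tested. Within PCL the lowest library was replicate 3 for Cst6, Sctr, Cldn4 and Ankrd34c and replicate 2 for Psca and Cela1.

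The differences between groups were also read on the scale of log2(FPKM + 1), on which all genes were fitted with limma. Of the 22601 genes, 12633 reached 1 FPKM in at least 3 libraries and entered the fit, and all 6 members did. Ankrd34c and Cldn4 reached 1 FPKM in 5 libraries, 3 of PCL and 2 of β-TCP, so they entered only through groups in which they were high. On this scale PCL minus control was 4.44 ± 0.42 (SE) for Cst6 and 3.76 ± 0.49 for Sctr. It was 2.87 ± 0.45 for Psca, 2.29 ± 0.28 for Cldn4, 2.23 ± 0.28 for Ankrd34c and 2.16 ± 0.17 for Cela1. Cst6 ranked 1 and Sctr ranked 3 by the size of the rise among all genes tested, while Psca ranked 12, Cldn4 41, Ankrd34c 47 and Cela1 51. The added 1 FPKM understates the change of low genes such as Ankrd34c, which had the largest ratio of mean FPKM to control.

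PCL minus hydrogel was 3.85 ± 0.42 for Cst6, 2.76 ± 0.49 for Sctr and 2.25 ± 0.28 for Ankrd34c (log2 scale, SE). Cela1 differed by 2.18 ± 0.17, Cldn4 by 2.07 ± 0.28 and Psca by 2.01 ± 0.45. These were ranks 2, 4, 8, 10, 14 and 17 of 12633, so by rank and on this scale the members lay closer together than against control. As ratios of mean FPKM they did not, at 5.27 to 118 to hydrogel and 6.65 to 81.9 to control. PCL minus β-TCP was 3.84 ± 0.42 for Cst6 and 2.41 ± 0.49 for Sctr, which ranked 2 and 15. It was 1.24 ± 0.28 for Ankrd34c, 1.20 ± 0.28 for Cldn4, 0.92 ± 0.17 for Cela1 and 0.71 ± 0.45 for Psca, at ranks 365, 396, 646 and 963. The Psca difference to β-TCP rested on β-TCP replicate 1, without which it was 0.10. Without control replicate 3, PCL minus control stayed between 2.22 for Ankrd34c and 4.35 for Cst6.

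**Figure D2:**
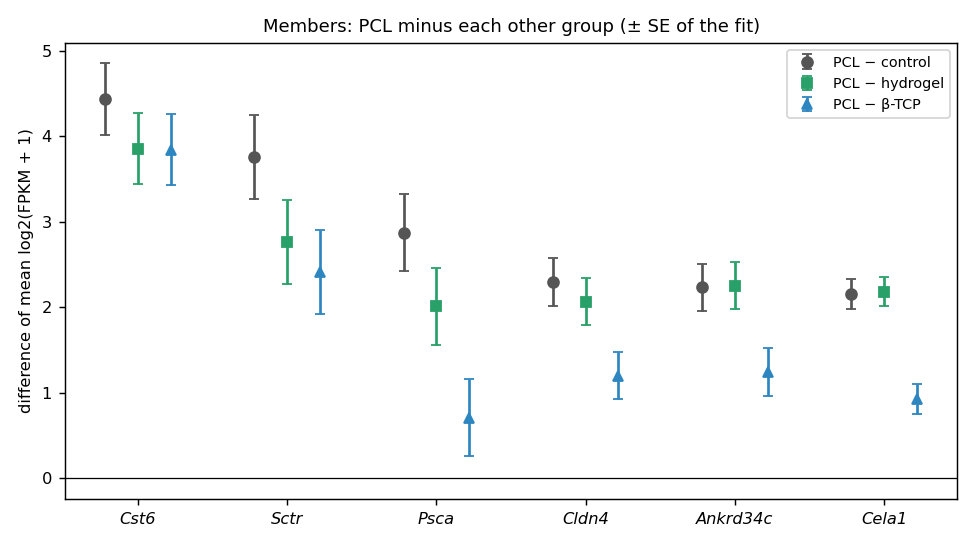
Difference of mean log2(FPKM + 1), PCL minus control, hydrogel and β-TCP, for each member, with bars of ± 1 standard error of the limma fit. Values are a description, because the members were chosen on the comparisons with control and hydrogel. Cst6 and Sctr keep large differences to all 3 groups, and the other 4 members differ less from β-TCP than from control or hydrogel.

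All 3 PCL libraries were above the other 9 for 5 of the 6 members, a pattern shown by 0.855% of the genes tested. They were above all control and hydrogel libraries for 6 of 6, against 3.15% of genes tested, and above all β-TCP libraries for 5 of 6, against 21.7%. The choice of members largely fixed the counts against control and hydrogel. The same high PCL values enter the count against β-TCP, so nothing is read from any of these counts. All 3 β-TCP libraries were above all control and hydrogel libraries for Ankrd34c and Cela1, 2 of 6, where 12.1% of genes tested had this pattern.

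RefSeq promoters of the rat build GRCr8 were at hand for 3 of the 6 members, Sctr, Ankrd34c and Cela1. The sequences upstream of Ankrd34c and Sctr are shown as examples, since these were the 2 of the 3 with the larger ratios to control. Capitals mark matches to the motifs named here, and both runs read 5′ to 3′ on the strand of the gene. The first covers the 250 bases before the Ankrd34c start, chr8:99161608-99161857 on the minus strand. The second covers 185 bases of the Sctr window, chr13:33680377-33680561 on the plus strand, and leaves out the bases that follow another annotated transcript start.
Ankrd34c: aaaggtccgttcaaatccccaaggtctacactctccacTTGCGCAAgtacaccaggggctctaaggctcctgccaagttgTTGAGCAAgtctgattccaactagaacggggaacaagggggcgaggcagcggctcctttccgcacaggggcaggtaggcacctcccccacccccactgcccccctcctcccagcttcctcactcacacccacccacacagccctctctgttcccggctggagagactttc
Sctr: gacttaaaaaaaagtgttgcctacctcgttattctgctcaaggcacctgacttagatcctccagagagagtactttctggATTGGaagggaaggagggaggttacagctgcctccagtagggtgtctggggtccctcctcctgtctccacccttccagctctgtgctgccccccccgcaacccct

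In all, 8 short motifs were searched on both strands of the 250 bases before the start, in the 3 members and in all 33469 promoters of the table. Ankrd34c held 2 matches to the C/EBP-type letters TTGCNNAA, beginning 212 and 170 bases before the start, where 9.22% of all promoters hold at least 1. Sctr held the CCAAT box letters CCAAT on the opposite strand, as 34% of all promoters do on either strand. Cela1 held the TATA box letters TATAAA beginning 31 bases before its start, as 12.9% of promoters do at any position of the window. No match in the 3 members was found for the GC box GGGCGG (30.5% of all promoters), the AP-1 letters TGANTCA (6.34%) or the PU.1-type letters GAGGAAGT (2.04%). The E-box CACGTG (5.59%) and the STAT-type letters TTCNNNGAA (7.67%) had none either. No motif was shared by any pair of these 3 promoters, and a match describes letters, not a binding site.

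The genes on either side of the members were looked up in the same RefSeq annotation, 3 protein-coding genes on each side. Of these 36 neighbours 22 were tested, and their median log2 difference was 0.18 for PCL minus control and -0.10 for PCL minus hydrogel. Only Them6, next to Psca and named after its values were seen, had a fold over 2 together with an unadjusted p under 0.05 against control (8.15 FPKM in PCL, 3.75 in control, log2 difference 1.06, adjusted p = 0.154 by limma). Without control replicate 3 its difference was 0.62, a fold under 2. None passed against hydrogel, where Them6 averaged 7.07 FPKM. Cldn3, the claudin beside Cldn4, and Slurp1 and Lypd2, Ly6-type genes near Psca, were too low to be tested.

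Relatives and known partners of the members were then counted in the limma fit by the threshold of the study's methods, a fold over 2 or under 0.5 together with an unadjusted p under 0.05. By this threshold 2.37% of the 12633 genes were higher and 1.27% lower in PCL than in control. Against hydrogel 0.546% were higher and 0.222% lower, and against β-TCP 3.34% were higher and 1.14% lower. At an adjusted p under 0.05 (Benjamini-Hochberg, limma) the shares were 0.245% higher and 0.0317% lower against control, and 0.0871% higher and 0.57% lower against β-TCP. Against hydrogel 0.103% were higher and 0% lower, although 675 genes were lower at an unadjusted p under 0.05, and limma-voom on recovered fragments likewise called 0 lower. The direction of these counts over all genes depended on the fit. The adjusted calls against β-TCP were 11 higher and 72 lower, but 1226 higher and 963 lower in a fit of PCL and β-TCP alone, and 1087 higher and 818 lower without control replicate 3. By the threshold of the study's methods, 300 genes were higher and 160 lower than in control, but 91 higher and 113 lower without control replicate 3. Of 133 relatives and partners found in the table, 58 were tested, of which 4 were higher and 3 lower in PCL than in control. Against hydrogel 1 was higher and 0 lower, and against β-TCP 1 was higher and 5 lower. The median log2 difference of the 58 genes was 0.12 against control, 0.16 against hydrogel and -0.22 against β-TCP, where all genes tested had 0.04, -0.06 and -0.04. Without control replicate 3, 3 of the 58 passed against control, and the calls of Stfa2, Cst7, Pth1r and Timp3 described below were lost.

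Among the other cystatins, 4 of 11 were tested and 2 passed that threshold against control. Stfa2, a stefin that inhibits cysteine cathepsins inside cells, had 14.6, 69.0 and 37.0 FPKM in PCL against 18.7, 15.6 and 0.135 FPKM in control, and 1 PCL library lay within the control range. Its log2 difference of 2.27 (SE 1.01, adjusted p = 0.267 by limma) was 0.94 without control replicate 3, whose Stfa2 level was near 0. Cst7, the cystatin of immune cells, had 9.21 to 12.3 FPKM in PCL against 1.81 to 6.75 FPKM in control (log2 difference 1.18, adjusted p = 0.185 by limma). Its difference was 0.74, a fold under 2, without control replicate 3. None of the 4 passed against hydrogel or β-TCP. Cst3, the broadly expressed cystatin C, averaged 3372 ± 573 FPKM in PCL and 4631 ± 1620 FPKM in control (SD, n = 3 each), and Cstb averaged 310 FPKM in PCL and 236 FPKM in control. Neither of these abundant cystatins passed either threshold against control.

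Legumain and the cysteine cathepsins were all expressed, and which of them cystatin E/M inhibits was not examined. All 11 of legumain and the cysteine cathepsins were tested, and none passed the threshold of the study's methods against control or hydrogel, with a median log2 difference of 0.29 and 0.21. Lgmn, legumain itself, averaged 229 ± 27.6 FPKM in PCL, 401 ± 147 in β-TCP, 138 ± 42.1 in hydrogel and 125 ± 12.7 in control (SD, n = 3 each). Its fold to control stayed under 2 (log2 difference 0.87, adjusted p = 0.202 by limma). Against β-TCP, 2 were lower in PCL. Ctsz averaged 356 FPKM in PCL against 752 FPKM in β-TCP (log2 difference -1.08, adjusted p = 0.0386 by limma). Ctsk, the collagen-degrading cathepsin of osteoclasts, averaged 2950 FPKM in PCL against 6890 FPKM in β-TCP (log2 difference -1.24, adjusted p = 0.0853 by limma). The Ctsz call was lost, at an adjusted p of 0.19, when β-TCP replicates 2 and 3 were averaged.

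In the secretin receptor family, 7 of 20 receptors, ligands and accessory proteins were tested. None was higher in PCL by the threshold of the study's methods. Pth1r, the parathyroid hormone receptor of bone and cartilage cells, had 15.9 to 23.9 FPKM in PCL against 35.3 to 106 FPKM in control and passed as lower (log2 difference -1.36, adjusted p = 0.165 by limma), although the difference was -0.85 without control replicate 3. Calcr, the calcitonin receptor of osteoclasts, had 9.73, 14.9 and 8.91 FPKM in PCL against 33.8, 26.4 and 26.5 FPKM in β-TCP. This difference of -1.32 passed at an adjusted p of 0.0476 by limma, which became 0.19 with the near-identical β-TCP pair averaged. Calcr averaged 7.25 FPKM in control, with 6.08 to 8.61 FPKM, all below the PCL libraries (log2 difference 0.54, adjusted p = 0.270 by limma). Its highest level was in β-TCP and not in PCL, unlike Sctr.

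Of 27 Ly6/uPAR genes found in the table besides Psca, 7 were tested. Cd59, a GPI-anchored inhibitor of the complement membrane attack complex, had 143, 136 and 145 FPKM in PCL, against 109, 101 and 97.8 FPKM in β-TCP, 97.1, 84.5 and 84.4 FPKM in hydrogel and 83.8, 79.5 and 76.2 FPKM in control. All PCL libraries were above the other 9, and the groups were tight. The log2 difference was 0.82 ± 0.09 (SE) to control (adjusted p = 0.0124 by limma) and 0.67 to hydrogel (adjusted p = 0.0376), a fold under 2 in both. The call against control was lost without PCL replicate 2 (adjusted p = 0.0639) and in a fit of PCL and control alone (0.17), and the call against hydrogel was lost under 14 of 22 alternatives, up to 0.182. Ly6al, another Ly6 gene, averaged 12.1 FPKM in PCL, 2.98 in β-TCP, 6.60 in hydrogel and 3.26 in control, and passed the threshold of the study's methods against control and β-TCP but not an adjusted p under 0.05. Its β-TCP call was lost with the near-identical pair averaged. Lypd8, also of this family, was lower in PCL than in β-TCP, at 2.26 against 6.13 FPKM (log2 difference -1.11, adjusted p = 0.0999 by limma).

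Claudins and other tight junction genes were mostly low. Of 29, 10 were tested and 0 passed either threshold in any of the 3 comparisons by limma, where 2.37% of all genes tested were higher and 1.27% lower than control by the threshold of the study's methods, with a median log2 difference of -0.06 to control and -0.07 to hydrogel. The most abundant was Tjp1, a scaffold protein under the junction, with 13.8 ± 3.38 FPKM in PCL and 16.9 ± 3.61 FPKM in control (SD, n = 3 each). F11r, a junctional adhesion molecule, averaged 8.59 FPKM in PCL and 9.17 FPKM in control. Ocln, the tight junction protein occludin, averaged 2.37 FPKM in PCL against 1.34 FPKM in control (log2 difference 0.53, adjusted p = 0.165 by limma). Cldn8, Cldn14, Cldn16 and Cldn18 were listed at 0 in all 12 libraries. The paralogs Ankrd34a and Ankrd34b did not reach 1 FPKM in any library. Their summed level was 0.0824 to 0.197 FPKM in PCL and 0.239 to 0.329 FPKM in control, so of this family only Ankrd34c passed the filter.

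Cela1 was set beside the other enzymes of pancreatic acinar cells and beside elastin and its proteases. Of 19 acinar genes 5 were tested and 0 passed either threshold in any comparison by limma. Cela3b, Pnlip, Pnliprp1, Amy2a3, Sycn and Ptf1a, which include the main lipase and a defining transcription factor of these cells, were at 0 in all libraries. The summed level of the 19 was 8.38 to 15.7 FPKM in PCL, 9.48 to 11.5 in β-TCP, 8.14 to 17.8 in hydrogel and 5.78 to 6.39 in control. Ctrc, a chymotrypsin, averaged 4.04 FPKM in PCL and 2.74 FPKM in control, and Klk1, a tissue kallikrein, ranged from 0 to 9.12 FPKM in PCL and was listed at 0 in the control libraries.

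Mmp12, the macrophage metalloelastase, was the elastase with the large change. It had 850, 504 and 367 FPKM in PCL, against 91.4, 516 and 514 FPKM in β-TCP, 13.9, 44.9 and 11.3 FPKM in hydrogel and 20.7, 24.5 and 36.5 FPKM in control. PCL did not overlap with hydrogel or control but overlapped with β-TCP. The log2 difference was 4.30 ± 0.68 (SE) to control (adjusted p = 0.0338 by limma) and 4.73 to hydrogel (adjusted p = 0.0376), and 0.89 to β-TCP (adjusted p = 0.439). Both calls were lost under 14 of 22 alternatives, up to an adjusted p of 0.156 and 0.204, with the direction kept. Mmp12 had its highest PCL value in replicate 1 and its lowest β-TCP value in replicate 1, as the members did. Of the 14 genes of elastin, elastases and their inhibitors, 2 were lower in PCL than in control by the threshold of the study's methods. Serpina1, the inhibitor of neutrophil elastase, averaged 0.463 FPKM in PCL against 9.13 FPKM in control, and Timp3, an inhibitor of metalloproteinases, had 14.5 to 17.8 FPKM in PCL against 24.1, 22.7 and 82.7 FPKM in control. Without control replicate 3 the Timp3 difference was -0.52, a fold under 2. Mmp7, matrilysin, was lower in PCL than in β-TCP, at 0.640 against 5.62 FPKM on average (log2 difference -1.95, adjusted p = 0.117 by limma). Elastin itself, Eln, averaged 8.61 FPKM in PCL and 7.65 FPKM in control.

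**Figure D3:**
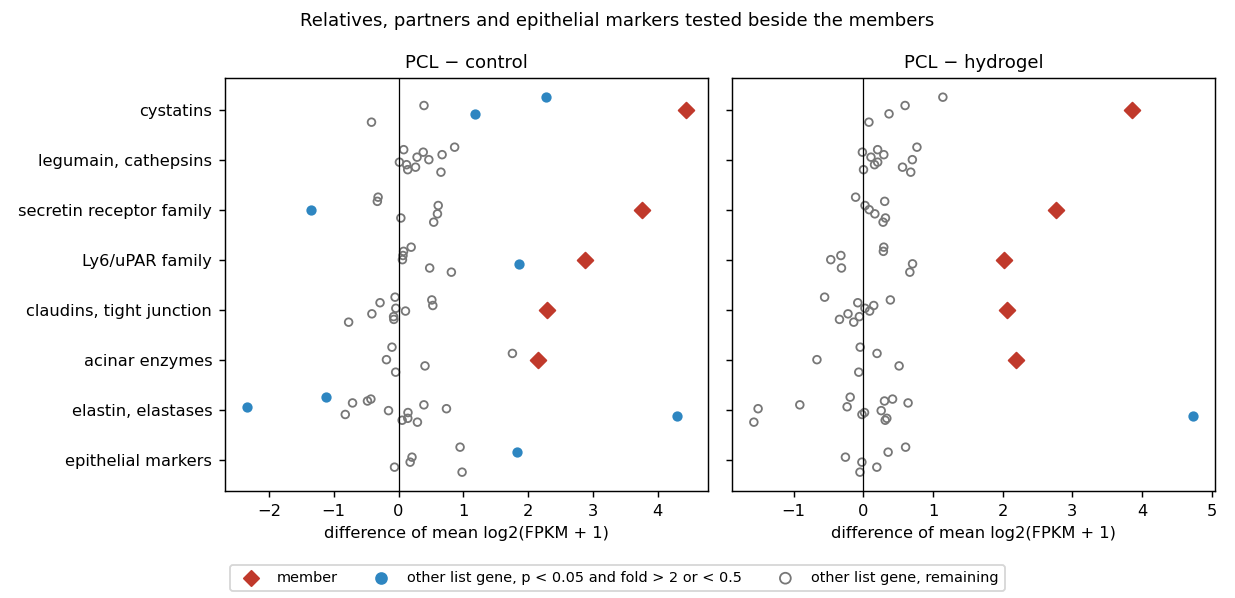
Difference of mean log2(FPKM + 1), PCL minus control (left) and PCL minus hydrogel (right), for the tested genes of 8 lists. Diamonds are members, filled circles are other list genes that passed an unadjusted p under 0.05 with a fold over 2 or under 0.5, and open circles are the remaining list genes. Each member shown lies to the right of its tested relatives, except that Mmp12 lies to the right of Cela1, at 4.30 against control and 4.73 against hydrogel. The members were chosen for large rises in these comparisons, which largely fixed their place, so nothing is read from it.

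Because several members are known from epithelia, 30 epithelial marker genes were read in the same libraries. Of these, 8 reached 1 FPKM in any library and 6 were tested. Of the 6 tested, 5 had a log2 difference above 0 to control, with a median of 0.58. The median was 0.09 to hydrogel, with 3 above 0, and 0.31 to β-TCP, with 4 above 0. The further markers given here, apart from Spint1, were at low levels. Krt17 and Ivl were at 0 in all libraries, and Epcam averaged 0.0645 FPKM in PCL and 0.338 FPKM in control. Krt18 and Krt19, keratins of simple epithelia, averaged 0.0848 and 0.0284 FPKM in PCL, against 0.189 and 0.238 FPKM in control. Epcam, Krt18 and Krt19 are given for their role. Their lower PCL means do not stand for the list, since 5 of the 6 tested were above 0 to control. The summed level of the list was 35.8 to 56.2 FPKM in PCL, 22.6 to 24.4 in β-TCP, 31.0 to 40.5 in hydrogel and 10.5 to 33.3 in control. Within PCL the sum rose from replicate 1 to replicate 3, the same order as Spint1 alone, so it is not read as an order of the whole list. Spint1, a surface inhibitor of serine proteases, made up much of the sum, with 15.0, 23.9 and 36.2 FPKM in PCL against 10.8, 16.3 and 0.646 FPKM in control, and was the only 1 of the 6 past the threshold of the study's methods against control or β-TCP. The call against control was lost without control replicate 3 (log2 difference 0.78) and the call against β-TCP with the near-identical pair averaged.

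Macrophage genes were read beside the members, and a relation between the 2 was not tested. The summed level of 20 macrophage markers was 5866 to 6586 FPKM in PCL, 5219 to 11084 in β-TCP, 4041 to 6093 in hydrogel and 2480 to 4546 in control. In β-TCP it was 5219 FPKM in replicate 1 and 11029 and 11084 FPKM in replicates 2 and 3. Replicate 1 was also the lowest of its group for all 6 members, as it was for 34.0% of genes tested. Of 18 tested, 4 were higher in PCL than in control by the threshold of the study's methods and 3 higher than in hydrogel, while 5 were lower and 1 higher than in β-TCP. The complement genes C1qb and C1qc averaged 79.0 and 86.2 FPKM in PCL against 165 and 171 FPKM in β-TCP, and Vsig4, a complement receptor of resident macrophages, averaged 0.906 against 6.90 FPKM (adjusted p = 0.0386, 0.0386 and 0.0346 by limma). With β-TCP replicates 2 and 3 averaged these 3 calls were lost, at an adjusted p of 0.19, 0.19 and 0.166. For 15 macrophage fusion genes the sum was 1073 to 1408 FPKM in PCL, 1364 to 1745 in β-TCP, 764 to 1071 in hydrogel and 820 to 1040 in control. Of 14 fusion genes tested, 3 were higher in PCL than in control, 2 higher than in hydrogel and 1, the chemokine Ccl2, lower than in β-TCP. Itgam and Itgb2, the chains of the leukocyte integrin CR3, averaged 56.5 and 133 FPKM in PCL against 18.9 and 42.5 FPKM in control.

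Of 12 osteoclast genes, 1 was higher in PCL than in control and 4 were lower than in β-TCP, among them Src, a kinase of the osteoclast's resorbing surface (24.6 against 53.1 FPKM, adjusted p = 0.0362 by limma, and 0.177 with the near-identical β-TCP pair averaged). Of 12 bone genes 3 were lower in PCL than in control, Alpl, Ibsp and Col1a2, of which Alpl had 76.9 to 114 FPKM in PCL against 130, 141 and 425 FPKM in control. All 13 cartilage genes tested were lower in PCL than in control, for example Hapln1 (5.42 against 267 FPKM). Of 11 erythroid genes tested 6 were higher, among them Klf1, the erythroid transcription factor (67.3 to 213 FPKM in PCL against 43.7, 65.9 and 0.943 FPKM in control). Without control replicate 3 the calls of Alpl, Ibsp and Klf1 were lost, with log2 differences of -0.53, -0.53 and 1.14. Ahsp and Hemgn, the other called erythroid genes of the list that were checked, lost their calls too (1.24 and 0.99). None of 12 muscle genes passed, and of 5 nerve genes tested S100b was lower (12.2 against 64.1 FPKM). Its log2 difference of -1.83 was -1.01 without control replicate 3. That library also had the highest summed nerve level in control, 157 FPKM against 45.1 and 34.3 FPKM. Erythroid genes summed to 15312 to 43056 FPKM in PCL and to 1135 to 18157 FPKM in control, and the cartilage sum was 222 to 531 FPKM in PCL against 2492 to 14601 FPKM in control. In hydrogel and β-TCP the cartilage sum was 370 to 898 and 319 to 1148 FPKM. The erythroid sum there was 13451 to 29616 and 4479 to 10674 FPKM. None of the cartilage genes passed against hydrogel or β-TCP. No erythroid gene passed against hydrogel, and 2 were higher than in β-TCP. Of these, the Klf1 call was lost with the near-identical β-TCP pair averaged. The part of these cell types in the members' levels was not tested.

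The members resembled each other across the libraries. Over the 15 pairs, Pearson's r of log2(FPKM + 1) was 0.75 to 0.97 over 12 libraries, with a median of 0.90. The members were selected for a shared rise in PCL, which enters these values. In the 9 libraries outside PCL, r was 0.21 to 0.94, with a median of 0.77. Cldn4 and Ankrd34c kept the highest value, 0.94, and Cst6 and Cela1 had the lowest, 0.21. The 9 points include the near-identical β-TCP pair and fall by group, so they are a description.

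The genes most like each member over the 12 libraries were taken by the same r. For Cst6 these were Gpr143, a pigment cell receptor (0.98), Sfrp5, a secreted Wnt antagonist (0.95), and Slc7a11, the cystine-glutamate exchanger (0.94). Gpr143 averaged 2.43 FPKM in PCL and 0.148 to 0.188 FPKM in the other groups, and Sfrp5 averaged 14.9 FPKM in PCL and 0.267 to 1.28 FPKM elsewhere. For Sctr they were Slc7a11 (0.96), Cldn4 (0.96) and Cst6 (0.94). Slc7a11 had 7.54, 4.57 and 2.54 FPKM in PCL against 0.455, 0.536 and 0.133 FPKM in control, the same order of PCL libraries as Cst6, Sctr and Ankrd34c. Psca was most like Fabp5, a fatty acid binding protein, and Tspan5, a tetraspanin (0.96 each). Fabp5 had 256, 219 and 224 FPKM in PCL and 242 FPKM in each of β-TCP replicates 2 and 3, so these β-TCP libraries lay within its PCL range.

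Cldn4 and Ankrd34c were each most like Il18bp, the secreted decoy for interleukin 18 (0.97 for both), and like each other (0.97). Il18bp had 32.5, 24.4 and 19.6 FPKM in PCL, 9.03, 17.3 and 17.8 FPKM in β-TCP, 5.43 to 9.03 FPKM in hydrogel and 4.87 to 6.05 FPKM in control. The next for Cldn4 was Rab7b, a GTPase of endosomes and lysosomes (0.96). Cela1 was most like Ankrd34c (0.96), Cldn4 (0.93) and Efr3b, a membrane anchor of a lipid kinase complex (0.93). Outside PCL the r of Rab7b with Cldn4 was 0.98 and that of Sfrp5 with Cst6 was 0.31, so the likeness of Sfrp5 and Cst6 lay mostly in the PCL libraries.

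**Figure D4:**
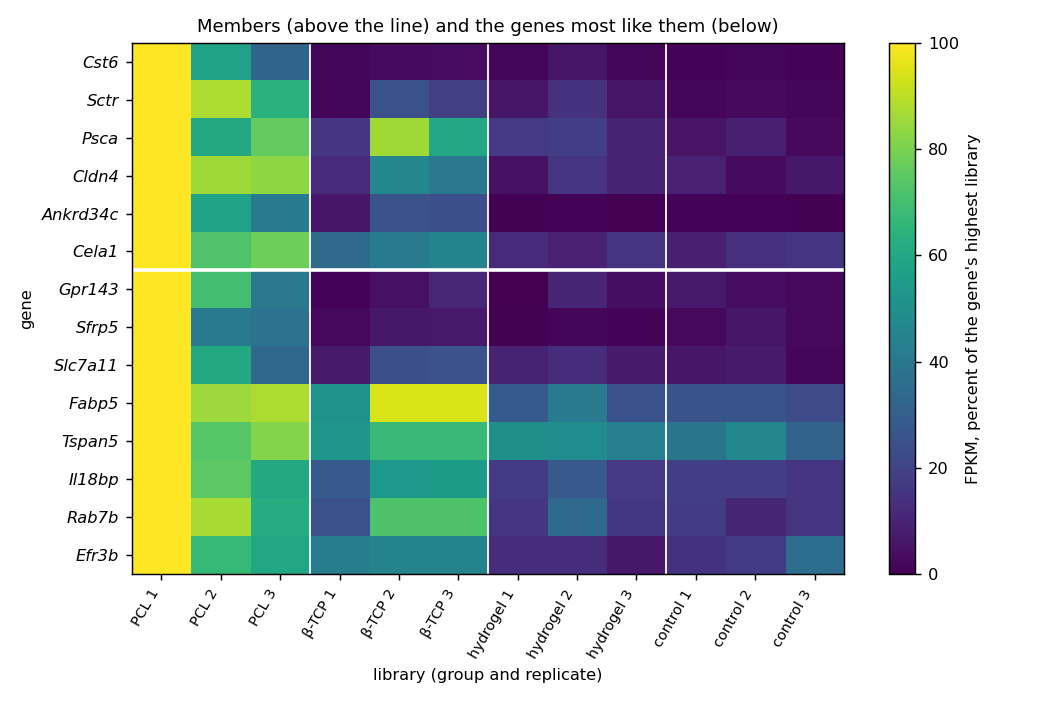
Level of the 6 members (above the white line) and of 8 other genes most like them (below), as a percentage of the gene's highest library, in PCL, β-TCP, hydrogel and control libraries from left to right. PCL replicate 1 is at 100% for all 6 members, and β-TCP replicates 2 and 3 are intermediate for most genes, at 85.8% and 59.99% for Psca but 3.02% and 3.30% for Cst6.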

How the data were processed

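Tissue from a rat distal femur defect was sequenced in 12 libraries, 3 in each of 4 groups. FPKM were used as deposited. For them the authors ran Trimmomatic on the reads, then HISAT2, then Cufflinks. The build named in the submitters' notes is Rnor_6.0, and the notes list StringTie, Bowtie, DESeq and HTSeq too, all without versions. Their labels and the paper's methods give different RNA, library and sequencing kits, and strand use in counting is not given in the sources used here, so reads of overlapping genes cannot be told apart. Values of 3 columns matched to no sample were not used. The deposited FPKM fell on whole-fragment steps within 0.01 for all 14664 genes above 0 in every library, which gave 15035925 to 17357830 fragments per library.

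Genes with at least 1 FPKM in 3 libraries entered 1 fit of all 12 libraries on the log2(FPKM + 1) scale, with group means, an intensity trend, two-sided tests and Benjamini-Hochberg adjustment (limma 3.58.1, R 4.3.3). The fit was tested on simulated data. The members and the 17 gene lists were chosen with earlier results of these data known. Of 274 list symbols 269 matched by symbol, 4 by identifier or synonym and 1 did not match. From each list were named up to 4 genes at an adjusted p under 0.05, taken by size of change, else up to 3 past the threshold of the study's methods, else the 2 with the highest mean, besides the 3 genes most like each member and the first 10 ranks of the rises over control and hydrogel. A few further genes of a list are given for their role, and some genes that the rule names are not reported here. Names, neighbours and promoters came from RefSeq (GRCr8). Alternatives were another pseudocount, filter, scaling or fit, the replicate number as a block, limma-voom on recovered fragments, the β-TCP pair averaged, and each library left out.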

Additional observations from a re-analysis of the deposited data

How the results depend on the processing

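All 18 differences of the members, PCL minus each other group, stayed above 0 under all 23 alternatives, and no value reversed. With single libraries left out, PCL minus β-TCP ranged from 1.72 to 2.84 for Sctr and 0.10 to 1.13 for Psca. The Ankrd34c differences to control and hydrogel reached 6.36 and 6.89 as log2 ratios of mean FPKM.

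Counts over all genes moved more. With each library left out in turn, the calls at an adjusted p under 0.05 ranged from 2 to 52 against control (main 35), 1 to 29 against hydrogel (main 13) and 1 to 1905 against β-TCP (main 83). The highest β-TCP count came without control replicate 3. By the threshold of the study's methods they ranged from 204 to 931 (main 460), 74 to 172 (main 97) and 177 to 714 (main 566). Calls among the relatives ranged from 3 to 8 (main 7), 1 to 3 (main 1) and 4 to 9 (main 6). At an adjusted p under 0.05 against control, the fit of only 2 groups gave 7 calls, limma-voom 9 and the averaged β-TCP pair 17. Against hydrogel, the pseudocount of 0.1 gave 6, median-of-ratios scaling 26, quantile normalization 25, limma-voom 1 and the averaged pair 4. Against β-TCP, the pseudocount of 0.1 gave 38, median-of-ratios scaling 50, the fit of only 2 groups 2189, limma-voom 45 and the averaged pair 1. By the threshold of the study's methods, the calls against hydrogel were 161 with the pseudocount of 0.1, 175 in the fit of 2 groups and 169 with limma-voom, and among the relatives 2, 3 and 2. They were 69 higher and 28 lower as reported, 82 and 15 with median-of-ratios scaling, 73 and 102 in the fit of 2 groups, 99 and 70 with limma-voom, 75 and 97 without control replicate 3, and 73 and 88 without PCL replicate 1. Against β-TCP the averaged pair gave 315 calls. The cause was not tested.

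No pairing by replicate number was assumed in the main fit. Deviations from the group mean of same-numbered replicates 1, 2 and 3 correlated at -0.17, -0.37 and -0.45 between PCL and control. Between PCL and hydrogel r was -0.20, 0.47 and 0.44, and between PCL and β-TCP it was -0.21, 0.05 and -0.23. Deviations from a group mean constrain each other, so these values cannot settle whether the numbers pair the samples. With the replicate number as a block, 11 genes were called against control, 3 against hydrogel and 45 against β-TCP at an adjusted p under 0.05.

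Of the relatives' calls, that of Cd59 against control was lost under 2 of 22 alternatives, those of Mmp12 against control and hydrogel, Cd59 against hydrogel and Calcr against β-TCP under 14, and that of Ctsz against β-TCP under 11. The 3 libraries per group limit these tests, and levels under about 0.1 FPKM rest on a few fragments.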

Other observations

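Other genes shared the first 10 ranks with the members, and several of them varied widely between libraries of a group. Besides Mmp12, the rises over control included Alox15, a lipoxygenase, Car1, the carbonic anhydrase of red cells, Ahsp, a haemoglobin chaperone, and the muscle genes Acta1, Myl1 and Mylpf. Acta1 had 67.9, 0.0401 and 56.0 FPKM in PCL, 6.33, 0.265 and 85.1 FPKM in hydrogel and 1.05, 0.0458 and 0.0853 FPKM in control, so it was high in 2 of the 3 PCL libraries and in 1 hydrogel library, with a smaller value in another. Ahsp had 776 to 2603 FPKM in PCL against 464, 736 and 10.02 FPKM in control.

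Against hydrogel the other leading rises were Lpl, the lipoprotein lipase, with 340, 217 and 168 FPKM in PCL against 42.5, 43.9 and 28.3 FPKM in hydrogel (log2 difference 2.59, adjusted p = 0.0376 by limma, lost under 14 of 22 alternatives, up to 0.182). Sfrp5 rose by 3.52 (adjusted p = 0.00718 by limma). Atf3, a stress response factor, averaged 23.6 FPKM in PCL and 3.40 FPKM in hydrogel, and Hba-a1, a haemoglobin chain, averaged 682 FPKM in PCL and 240 FPKM in hydrogel, neither passing an adjusted p under 0.05. The gene listed as RGD1562156 had 9.76, 6.71 and 7.87 FPKM in PCL, 0.217 to 2.69 FPKM in hydrogel and 1.22 to 2.80 FPKM in control, and was listed at 0 in all 3 β-TCP libraries.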
